A study of Mus musculus with 6 samples.

Results

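The mRNAs that encode the miRNA silencing machinery are themselves targets of miRNAs, and their hybrids were examined here in AGO2 CLASH libraries of mouse P19 cells. In CLASH the miRNA that AGO2 holds is ligated, after UV cross-linking, to the mRNA fragment paired with it, so that each read names a miRNA and a target. The members were chosen by symbol among the target genes, namely Ago1, Ago2, Ago3 and Ago4, Tnrc6a, Tnrc6b and Tnrc6c, Gigyf1 and Gigyf2, and Fmr1. Of these 10 genes, 7 had at least 1 hybrid, out of 3200 target genes in all, and Ago2, Ago4 and Gigyf2 had none. The 7 genes held 195 of 15680 hybrid reads (1.24%), from 193 distinct hybrids, 42 miRNAs and 82 miRNA-target pairs. Of the distinct hybrids, 191 were seen in 1 read.

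P19 is a mouse embryonic carcinoma line. WT cells carried both intact Dicer alleles, Dicer (+/+). HM cells, Dicer (HM/-), were edited with CRISPR, so that 1 allele carried a hotspot mutation of the RNase IIIb domain and the other a truncating frameshift, so the groups differ in Dicer dosage as well as in the hotspot, and HM is a clonal line. The methods state that the miRNA cluster on chromosome 12 was not expressed in the HM line. The HM libraries went against this, with 1.69% to 1.86% of their reads from miRNAs of that cluster against 1.72% to 1.92% in WT libraries; whether this bears on the genotype of the libraries was not tested. None of these reads was on the 10 genes named above. There were 3 biological replicates of each genotype, with no treatment beyond the CLASH procedure.

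AGO proteins hold the miRNA and use its seed, the bases near its 5′ end, to find partly complementary sites in mRNAs. TNRC6 (GW182) proteins bind AGO and recruit the deadenylases that shorten the poly(A) tail. GIGYF proteins act with the cap-binding protein EIF4E2 in translational repression, and FMRP, the product of Fmr1, is an RNA-binding protein of translational control known for its loss in fragile X syndrome. Dicer cuts the hairpin precursor, with RNase IIIb releasing the 5p strand and RNase IIIa the 3p strand.

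The 3 WT libraries held 1621 to 2331 hybrid reads and the 3 HM libraries 1661 to 5341, so the limit that a count of 0 allows, 3 reads, came to between 0.562 and 1.85 per 1000 hybrids of a library. Such floors and the intervals below cover counting error only. The share of 5p hybrids was 52.3% to 56.5% in WT and 3.66% to 4.23% in HM libraries. Hybrids of the miR-290 and miR-302 clusters, which mark pluripotent cells, made up 34.5% to 38.7% of WT and 56.9% to 59.1% of HM reads, and the marker miRNAs of muscle, liver, blood, neurons and erythroid cells had 0 reads. HM libraries 1 and 2 did not differ in their miRNA counts beyond sampling noise (chi-square p = 0.961). They shared 81 distinct hybrids (5.02% of those of library 1), none on a member, against 1.28% to 4.05% for the other pairs of libraries. With 1613 distinct hybrids in the 1661 reads of HM library 1, little sharing is possible, so this cannot tell whether they are separate. They were kept as separate libraries, as the sample titles give them.

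RefSeq (GRCm38.p6) held 37 of the 42 miRNAs joined to these mRNAs. The 5 mature miRNAs with at least 5 reads on a member are shown because they hold the highest counts on a single mRNA, with the seed (bases 2 to 8) in capitals. They lie at chr14:115044358-115044380 and, as a second copy, chrX:52741991-52742013 (miR-19b-3p), chr3:127545275-127545297 (miR-302b-3p), chr3:127545665-127545687 (miR-302d-3p), chr1:23272274-23272295 (miR-30a-5p) and chr16:14159630-14159651 (miR-484), on the plus strand except for the copy on chromosome X. The pair from the miR-302 cluster has the same seed.
miR-19b-3p: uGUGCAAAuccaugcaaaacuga
miR-302b-3p: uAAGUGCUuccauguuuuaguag
miR-302d-3p: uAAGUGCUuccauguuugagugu
miR-30a-5p: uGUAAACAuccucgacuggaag
miR-484: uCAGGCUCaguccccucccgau

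The target fragments were mapped by the authors to 3′ UTRs only, so each lies in the 3′ UTR of its gene. Fragments of a gene that shared at least 15 identical bases were counted as 1 site, numbered within the gene by reads. The 185 distinct fragments fell into 84 sites, of which 51 had 1 read. Fragments that differ by 1 base can fall into separate sites, so the number of sites may be too high. On Gigyf1 this holds for sites 1 and 6 and for sites 4 and 12. The 3 reads of Gigyf1 site 6 had no match to the RefSeq seed. Sites with at least 3 reads and a match to a RefSeq seed are shown, except for 1 of Gigyf1. They are printed as cDNA of the mRNA, 1 fragment a site. Capitals mark the match to the RefSeq seed of a joined miRNA. The miRNA is miR-20b-5p and miR-302b-3p for Ago1, then miR-93-5p, miR-26a-5p and miR-30a-5p for Tnrc6a, miR-30a-3p and miR-19b-3p at the next 2 sites for Tnrc6b, miR-302b-3p for Tnrc6c, miR-484 and miR-19b-3p for Gigyf1, and miR-130a-3p, miR-92a-3p and miR-30a-3p for Fmr1.
Ago1 site 1: atgacatttGCACTTTcaga
Ago1 site 2: taggcactatgGCACTTAgct
Tnrc6a site 1: cccaggacgggccctGCACTTTgaa
Tnrc6a site 2: tcagtttgaaTACTTGAAtcatg
Tnrc6a site 3: ccggtgaaccttctTGTTTACAgatttttt
Tnrc6b site 2: taagaaacatatatACTGAAAAa
Tnrc6b site 3: tgagcacccatTTTGCACAgtg
Tnrc6b site 4: tttttaactttgTTTGCACtgggt
Tnrc6c site 1: ttctatcatgaaggGCACTTttc
Gigyf1 site 4: cttgggggcccatGAGCCTGgagag
Gigyf1 site 5: gtgctggcagTTTGCACAgcgagcgagcgg
Fmr1 site 1: ccgttaaaataTGCACTAag
Fmr1 site 3: attggttataGTGCAATAtat
Fmr1 site 4: tttttaaatgACTGAAAttc

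The first question was which of these genes had more or fewer hybrids in HM cells. Tnrc6a lost hybrids, while Gigyf1 and Fmr1 gained them. Reads were summed per gene and tested with edgeR's quasi-likelihood test over all genes with at least 10 reads, with Benjamini-Hochberg adjustment at 0.05 and each library's total hybrid reads as its size. Among the 6 members with enough reads, 3 passed, 1 lower and 2 higher in HM. Over all 344 genes tested, 57 passed (16.6%), of which 37 were lower (10.8%) and 20 higher (5.81%). The median log2 fold change was 0.83 over the 6 members, which stays the same with Fmr1 at its lower bound, and 0.27 over all genes tested. These values describe the members only, since a gene passes the minimum partly through the genotype in which it is high.

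**Figure D1:**
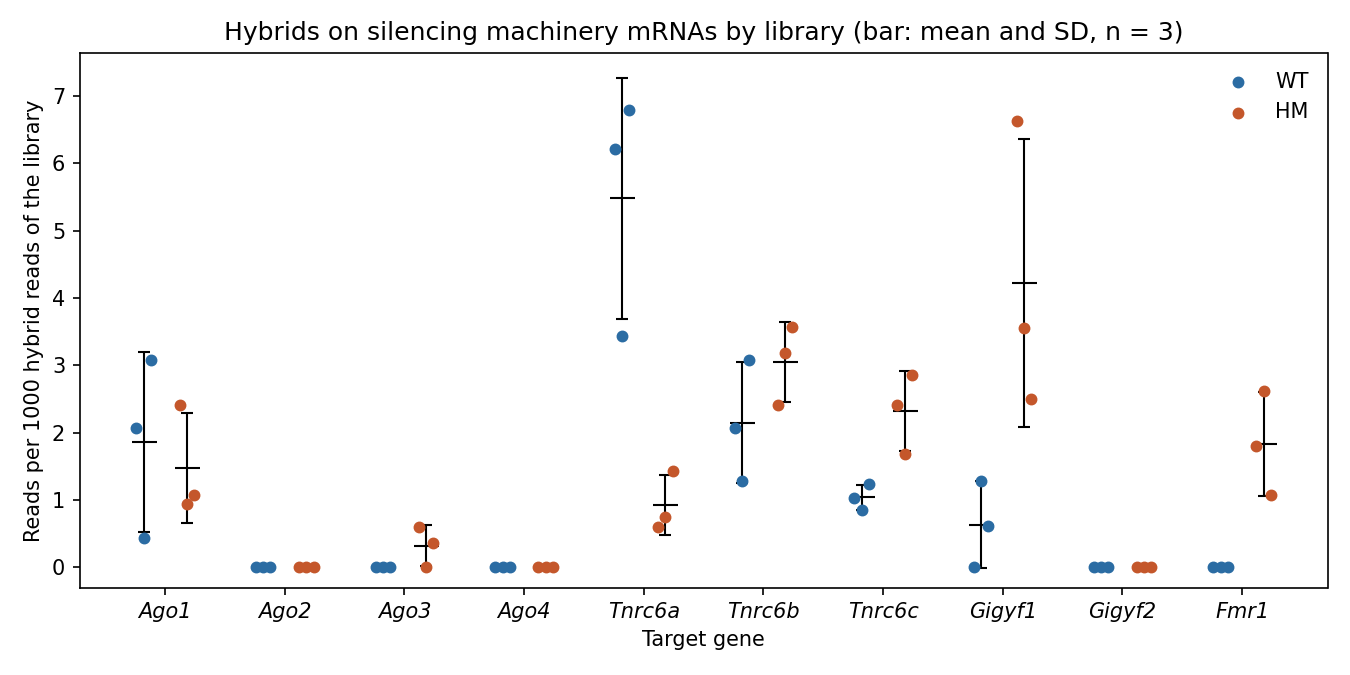
Hybrid reads on each silencing machinery mRNA per 1000 hybrid reads of the library, by target gene; points are libraries, black bars the mean and SD of 3 libraries of WT or HM. Tnrc6a lies lower in every HM library (at most 1.43) than in any WT library (at least 3.43), and Gigyf1, Tnrc6c and Fmr1 lie higher.

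Among the AGO mRNAs, Ago1 was the main target. WT libraries 1, 2 and 3 held 4, 1 and 5 of its reads, and HM libraries 1, 2 and 3 held 4, 5 and 3, the order used for all values below. Per 1000 hybrids this was 1.86 ± 1.34 in WT and 1.47 ± 0.813 in HM (SD, n = 3 each), and the genotypes overlapped. The ratio of HM to WT was 0.720 with a 95% interval of 0.285 to 1.86, and edgeR gave an adjusted p of 0.754. The 22 reads came from 12 miRNAs, of which miR-302b-3p, with 6 reads, was the only one with at least 3.

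Ago1 site 1 was joined to miRNAs of the miR-17, miR-290 and miR-302 groups, which recognise related motifs. It held 3, 0 and 1 reads for WT and 0, 3 and 0 for HM, and each of these 7 reads had a seed match. Ago3 had 0 reads in WT and 1, 0 and 1 in HM, too few for a fold. Ago2, the protein that was immunoprecipitated, had no hybrid on its own mRNA, which at a total of 5881 WT and 9799 HM reads allows up to 0.510 and 0.306 reads per 1000 hybrids.

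Among the TNRC6 mRNAs, Tnrc6a had the largest loss. WT libraries held 12, 8 and 11 of its reads against 1, 4 and 4 for HM. After division by library size no HM library reached the lowest WT library, a separation found in 14.2% of the genes tested. The level was 5.48 ± 1.80 reads per 1000 hybrids in WT and 0.927 ± 0.442 in HM (SD, n = 3 each). The ratio was 0.174 (95% interval 0.0730 to 0.375), and the log2 fold change was -2.47 ± 0.58 (SE) with an edgeR adjusted p of 0.000648. This call held in each of the 13 alternatives run.

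The loss on Tnrc6a was on 5p hybrids. WT libraries held 11, 8 and 11 of them and HM libraries 0, 1 and 2. They were 96.8% of the WT reads with a named arm (95% interval 83.3% to 99.9%, exact Clopper-Pearson), against 53.8% over all genes. The log2 fold change was -3.87 ± 0.71 (SE), with an edgeR adjusted p of 2.5e-06. Without single replicates the log2 fold change lay between -4.77 (without HM replicate 3) and -3.38 (without HM replicate 2). With DESeq2 it was -4.67. Of the 44 gene and 5p combinations tested, 43 were lower in HM (97.7%), 42 of them without overlap (95.5%). Their median log2 fold change was -5.05, so Tnrc6a stood with nearly all of them. With 5p hybrids at 3.81% of HM reads with a named arm over all genes, such a result was close to fixed in advance. Tnrc6a had enough 5p reads for this test in WT alone (30) and too few in HM alone (3). The 3p hybrids of Tnrc6a numbered 1, 0 and 0 for WT and 1, 3 and 2 for HM. Per hybrid the genotypes did not overlap, but the ratio of 3.60 rests on 1 WT read and its interval, 0.437 to 166, includes no change.

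The miRNAs on Tnrc6a were mostly of the miR-30 and miR-17 groups. The miR-30 5p strands together gave 4, 4 and 3 reads for WT and 0 in each HM library. They made up 35.5% of WT reads on Tnrc6a and 2.14% of WT reads on all genes, where they too had 0 reads in HM. On Tnrc6a a seed match was found in 3 of the 6 miR-30a-5p reads and 1 of the 4 miR-30e-5p reads. Over all members 45.5% of miR-30 5p reads had a match, against 84.0% on all other genes. The miR-17 group, which includes miR-20b-5p and miR-106a-5p, gave 3, 4 and 1 reads for WT and 0, 1 and 1 for HM.

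Single miRNAs with at least 3 reads on Tnrc6a were miR-30a-5p with 6, miR-30e-5p, miR-20b-5p and miR-26a-5p with 4 each, and miR-106a-5p, miR-374b-5p and miR-302c-3p with 3 each. All 4 miR-26a-5p reads were in WT library 3. The other 10 miRNAs had 1 or 2 reads.

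Tnrc6a site 1 held 16 reads, 4, 6 and 4 in WT and 0, 1 and 1 in HM, all of 5p strands from 7 miRNAs. The strands miR-30a-5p, miR-30e-5p and miR-30d-5p gave 3, 2 and 1 of its reads. Only 2 reads of the site had a match to the seed of the joined miRNA. Site 3 held 3, 1 and 0 reads for WT and none in HM, all from miR-30a-5p and miR-30e-5p and all with the full 8mer match printed above. Site 2, with 1, 0 and 3 reads for WT and 0, 1 and 1 for HM, was shared by miR-374b-5p, miR-26a-5p and miR-23b-3p.

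Tnrc6b, the member with the most reads (43), showed no separation of the genotypes. Its reads numbered 4, 3 and 5 for WT and 4, 17 and 10 for HM, or 2.15 ± 0.901 and 3.06 ± 0.594 per 1000 hybrids (SD, n = 3 each). The ratio was 1.55 (95% interval 0.774 to 3.32) and the edgeR adjusted p 0.540. Its log2 fold change of 0.60 turned to -0.43 when the total of 3p hybrids was the library size.

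The miRNAs on Tnrc6b with at least 3 reads were miR-302b-3p with 8, miR-302d-3p with 6, miR-19b-3p with 5, and miR-367-3p and miR-466i-5p with 3 each. Site 1 was joined to miR-302b-3p and miR-302d-3p in 6 reads, 5 of them from HM, with 0 seed matches. Sites 3 and 4 were both joined to miR-19b-3p at a seed match. At site 4 the match to miR-19b-3p, TTTGCAC, overlaps that to miR-130a-3p, TTGCACT, and hybrids with miR-19b-3p, miR-130a-3p and miR-301a-3p were all found there. The miR-19b-3p match stood in 23.3% of Tnrc6b reads and in 6.28% of all reads. Of the 10 Tnrc6b reads with it, 5 were joined to miR-19b-3p. It stood in 31.8% of Ago1 reads, none of them joined to miR-19b-3p.

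Tnrc6c had 2 reads in each WT library against 4, 9 and 8 for HM. Its level was 1.04 ± 0.188 reads per 1000 hybrids in WT and 2.32 ± 0.593 in HM (SD, n = 3 each) without overlap, but edgeR gave an adjusted p of 0.368. Together with Gigyf1 and Fmr1 it made 3 of 6 members with every HM library above every WT library, against 16.6% of genes tested. Its 3p hybrids numbered 1 in each WT library and 4, 8 and 7 for HM (edgeR adjusted p = 0.0894), and its 5p hybrids 1 in each WT library and 0 for HM. Without HM replicate 2, the 3p adjusted p was 0.0351.

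The leading miRNAs on Tnrc6c were miR-302b-3p with 7 reads and miR-19b-3p with 4, the latter all in HM. Site 1 carried 6 of the 10 miR-302 reads, 1, 0 and 1 for WT and 1, 2 and 1 for HM. A miR-19b-3p site of Tnrc6c and one of Tnrc6a, named after their values were seen, share the run CTTTGCACTGAG, which covers the same overlapping miR-19 and miR-130 match; the run stood in 3 reads, all with miR-19b-3p.

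Gigyf1 gained hybrids, nearly all of them with 3p-miRNAs or miR-484. WT libraries held 0, 3 and 1 of its reads and HM libraries 11, 19 and 7, with every HM library above every WT library. The level was 0.635 ± 0.644 reads per 1000 hybrids in WT and 4.23 ± 2.14 in HM (SD, n = 3 each). The ratio was 5.55 (95% interval 1.99 to 21.4), and the log2 fold change was 2.43 ± 0.70 (SE) with an edgeR adjusted p of 0.00747. Without WT replicate 2, which held 3 of the 4 WT reads, the log2 fold change was 3.56. The adjusted p was 0.0568 without WT replicate 1 and 0.0505 with DESeq2. With the total of 3p hybrids as library size, the log2 fold change of Gigyf1 was 1.42 and its edgeR adjusted p 0.170. The median of all genes moved from 0.27 to -0.75. This change of library size moved the tested members by nearly the same amount as the median, except Fmr1, which went from 5.42 to 5.12. The distance of Gigyf1 from the median, 2.17 in both cases, therefore does not bear on the lost call.

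Counted by arm, the 3p hybrids of Gigyf1 numbered 0, 1 and 0 for WT and 10, 16 and 5 for HM. Only 1 WT read stands behind the ratio of 18.6, whose interval ran from 3.10 to 758. Per 3p hybrid the ratio was 8.96 (1.49 to 365). The edgeR adjusted p was 0.000442, and 0.0287 with the total of 3p hybrids as library size. Without WT replicate 2, which held the WT read, it was 0.00221. For these tests and those of the gene, Gigyf1 had enough reads in HM alone and too few in WT alone. The 5p hybrids numbered 0, 2 and 1 for WT and 0, 1 and 0 for HM, which overlap.

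Of the 5 members whose 3p hybrids could be tested, Gigyf1 and Fmr1 were higher in HM, and none was lower. Each of the 5 had enough reads for this test in HM alone and too few in WT alone. Over all 262 gene and 3p combinations, 34 were higher (13%) and 98 had every HM library above every WT library (37.4%), as Gigyf1, Fmr1 and Tnrc6c did. The median of these 262 log2 fold changes was 1.16 with all hybrids as library size and 0.19 with 3p hybrids. The 3p hybrids of Tnrc6b and Ago1 lay below both medians, at 0.82 and -0.21 with all hybrids as library size and -0.22 and -1.23 with 3p hybrids.

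**Figure D2:**
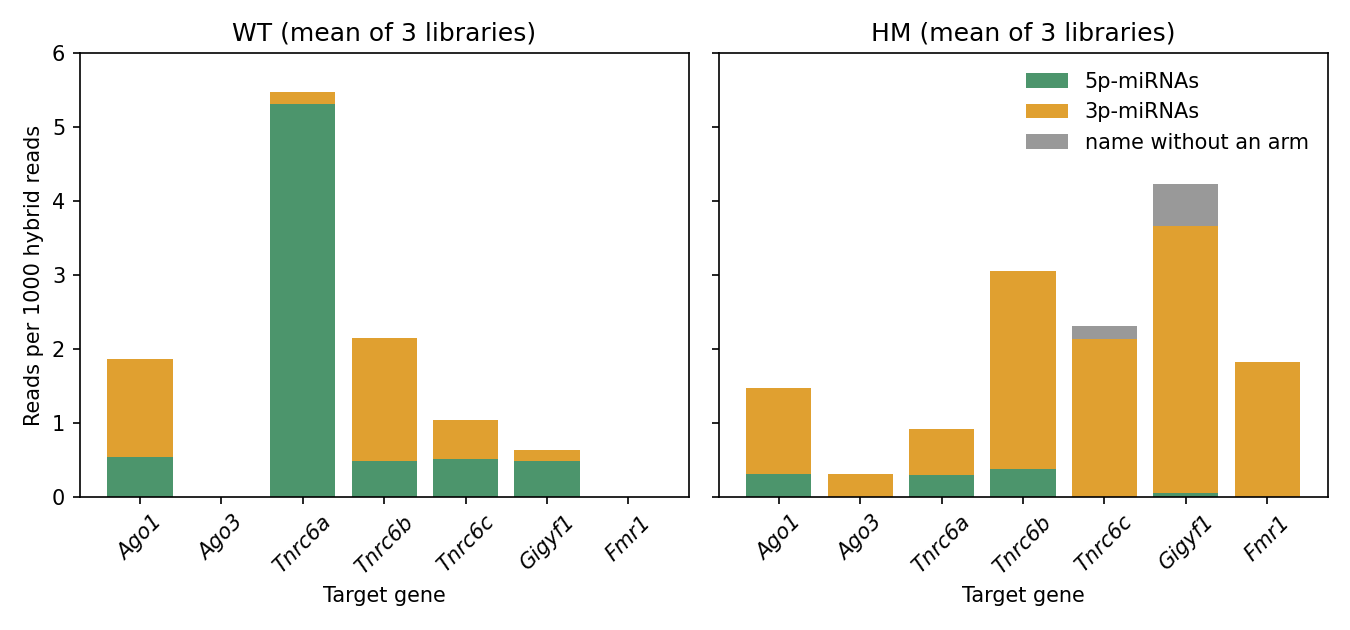
Mean hybrid reads per 1000 hybrid reads over 3 libraries for each target gene, stacked by the arm of the miRNA, in WT (left) and HM (right). In WT nearly all of the Tnrc6a bar is from 5p-miRNAs, and in HM the bars of Gigyf1, Tnrc6b, Tnrc6c and Fmr1 are mostly or wholly from 3p-miRNAs.

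miR-19b-3p made the largest part of the gain on Gigyf1. It had 0 reads in each WT library and 5, 8 and 5 in HM libraries. Against 3 reads summed over the WT libraries this was at least 3.60-fold higher per hybrid, and at least 1.73-fold higher per 3p hybrid. It was the only miRNA-member pair with at least 10 reads, a minimum that it met through HM alone. In the test of pairs, with the total of 3p hybrids as library size, edgeR gave an adjusted p of 0.0468. Of 140 pairs tested, 3 were higher in HM (2.14%). The adjusted p lay between 0.00235 and 0.325 over the alternatives, and 8 of 12 lost the call.

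The other miRNAs with at least 3 reads on Gigyf1 were miR-484 with 5, miR-30a-3p with 4, and miR-302a-3p and miR-302b-3p with 3 each. The miR-484 reads were 0 in WT and 1, 2 and 2 in HM, and all 5 held a seed match. They were 12.2% of Gigyf1 reads against 0.338% of all reads. miR-19 made 43.9% of Gigyf1 reads and 5.61% of all reads.

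In most miR-19b-3p reads on Gigyf1 the miRNA started 1 base before the RefSeq start, which moves the seed by 1 base. The base before the start is C in both RefSeq hairpins of miR-19b, as it is in the reads. The forms are shown with bases 2 to 8 in capitals, the longer form as DNA letters from the hybrid reads.
miR-19b-3p, RefSeq start: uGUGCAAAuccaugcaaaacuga
miR-19b-3p, 1 base longer: cTGTGCAAatccatgcaaaactga

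On Gigyf1, 17 of 18 miR-19b-3p reads had the longer start, 4 of 5, 8 of 8 and 5 of 5 in HM libraries 1 to 3. Sites 1 and 6, whose fragments differ by 1 base, held 16 of these 18 reads, all with the longer start. The pattern on Gigyf1 thus rests nearly on a single place in its 3′ UTR. On all other genes the longer start made up 22.6%, 20.5% and 19.9% of miR-19b-3p reads in HM libraries 1 to 3 and 4.26%, 5% and 5.88% in WT libraries 1 to 3, so that the genotypes did not overlap. Gigyf1 had the most reads with this form among 103 genes. Next came Adipor2 with 7 of its 9 miR-19b-3p reads, Mat2a with 6 of 10, and Rhob and Suz12 with 5 of 6 and 5 of 18, so that a high share was not seen on Gigyf1 alone. On the other silencing machinery mRNAs 1 of 10 HM reads of miR-19b-3p had it. This pattern was noticed in the reads and no test was made of it.

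**Figure D3:**
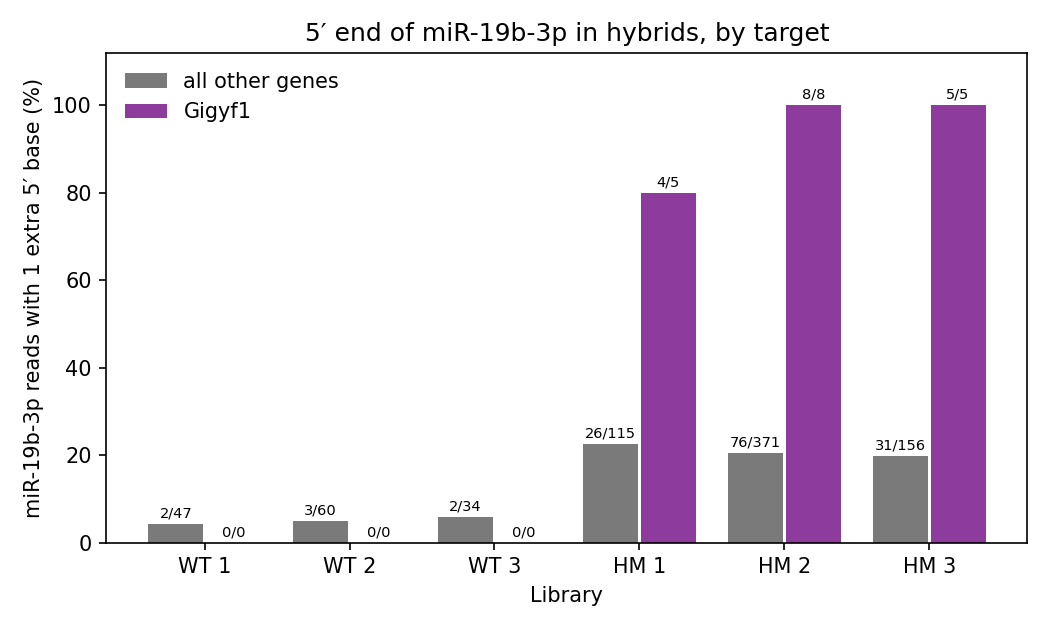
Percent of miR-19b-3p hybrid reads whose miRNA starts 1 base before the RefSeq start, by library, on Gigyf1 and on all other genes; the numbers above the bars are reads with this start over reads placed. In HM libraries the share is 80% to 100% on Gigyf1 and 19.9% to 22.6% on other genes, and Gigyf1 has no miR-19b-3p read in WT.

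Fmr1 had hybrids in HM libraries only. No WT library held a read, and HM libraries held 3, 14 and 3, all 20 from 3p-miRNAs. Against 3 reads summed over the WT libraries this was at least 4.00-fold higher per hybrid, and at least 1.93-fold higher per 3p hybrid. The edgeR adjusted p was 0.00347 for the gene and 0.0011 for its 3p hybrids. Fmr1 had enough reads for these tests through HM alone. With DESeq2 the gene's adjusted p was 0.0491 and none was given for the 3p hybrids. HM library 2 held 14 of the 20 reads, and without HM replicate 2 the other 6 fell short of the minimum for a test.

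Per 1000 hybrids the HM libraries ranged from 1.07 to 2.62 for Fmr1. The 20 reads came from 7 miRNAs, of which miR-302b-3p had 5, miR-130a-3p 4, and miR-30a-3p and miR-92a-3p 3 each. Strands with the miR-25/92 seed, which include miR-92a-3p, miR-363-3p and miR-367-3p, had 1, 5 and 1 reads. All 4 miR-130a-3p reads were in HM library 2.

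Fmr1 site 1 held 1, 5 and 1 reads from miR-130a-3p, miR-291a-3p, miR-302b-3p and miR-367-3p, of which 3 had a seed match. Site 3 held 1 read in each HM library from miR-92a-3p, miR-363-3p and miR-302b-3p, 2 of them with the 8mer match printed above. Site 4 held 0, 2 and 1 reads, all from miR-30a-3p and all with a seed match.

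**Figure D4:**
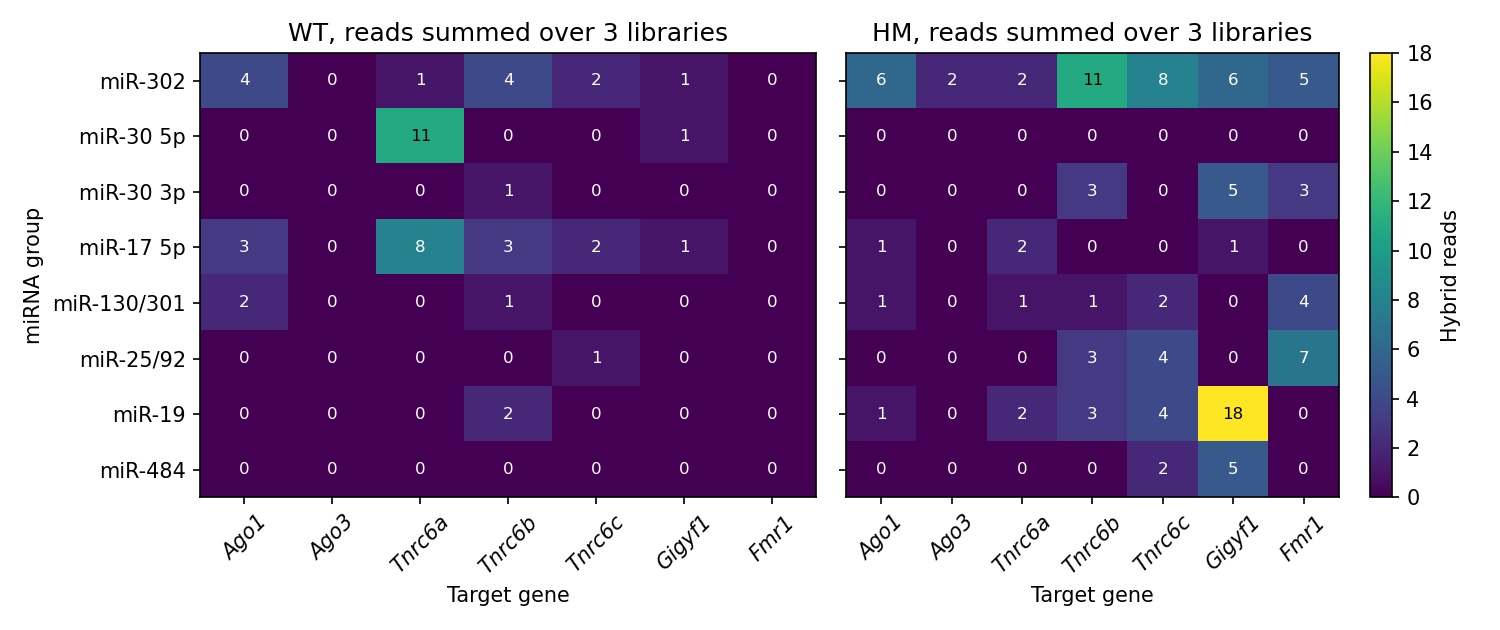
Hybrid reads summed over 3 libraries, by miRNA group (rows) and target gene (columns), in WT (left) and HM (right); the colour scale runs from 0 to 18 reads. The miR-30 5p strands on Tnrc6a (11 reads) and the miR-17 group (8 reads) lead in WT, and the miR-19 strands on Gigyf1 (18 reads) and the miR-302 strands on Tnrc6b (11 reads) lead in HM.

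Over all members, 5p-miRNAs gave 16, 12 and 14 reads for WT and 2, 5 and 3 for HM, and 3p-miRNAs 6, 5 and 10 for WT and 25, 60 and 30 for HM. The total was 11.2 ± 3.76 reads per 1000 hybrids in WT and 14.2 ± 2.34 in HM (SD, n = 3 each), with overlap between the genotypes. Of the WT reads 66.7% were from 5p-miRNAs (95% interval 53.7% to 78.0%, exact Clopper-Pearson), and 42 of the 63 WT reads were of this arm, 30 of them on Tnrc6a. In HM 8% of the 125 reads with a named arm were from 5p-miRNAs (3.90% to 14.2%), of which 3 were miR-466i-5p on Tnrc6b.

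The miR-302 strands, abundant in these cells, were spread over the members. All 7 genes had 2 to 11 HM reads from them, which with WT made 26.7% of all member reads against 28.5% of the reads on all genes. The 7-base seed match of miR-302b-3p and miR-302d-3p, AGCACTT, stood in 1 of the 195 member reads (0.513%) and in 9.10% of all reads. Of the reads of miR-302b-3p and miR-302d-3p, 27.5% on members and 45.5% on all other genes had a match of at least 6 bases.

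Seed matches of any class were found in 45.2% of the member reads whose miRNA has a RefSeq sequence (80 of 177, 95% interval 37.7% to 52.8%, exact Clopper-Pearson) and in 61.1% of all such reads. The classes were 23 8mers, 22 matches to bases 2 to 8, 23 to bases 2 to 7 followed by A, 12 to bases 2 to 7, and 97 with none. The share in members lay below that on all other genes in each of the 6 libraries, between 18.8% and 57.1% against 56.5% and 68.5%. Among the 6 genes with at least 20 such reads it ran from 24% for Tnrc6c through 35.1% for Tnrc6b, 42.1% for Tnrc6a and 45% for Fmr1 to 63.9% for Gigyf1 and 65% for Ago1. With the seed taken from the start of each miRNA in the read, the share on Gigyf1 was 85.7% in place of 65.7% over the same 35 reads, while it was 47.1% in place of 58.8% on Ago1, 42.1% in place of 47.4% on Fmr1 and 61.4% in place of 61.6% over all genes. The 3p strand of miR-30a started 1 base after the RefSeq start in all 7 of its reads on Gigyf1 and Fmr1, as it did in 93.7% of its reads elsewhere. Counted from that start, all 4 of its reads on Gigyf1 had a seed match, against 0 from the RefSeq start. The 3 reads on Fmr1 had a match from either start. The capitals printed above for miR-30a-3p follow the RefSeq start.

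Other genes of miRNA silencing and biogenesis were taken from a list of 69 symbols, which holds older symbols of some of its genes. Hybrids were found on 28 of them, and 10 had at least 10 reads. None of these 10 passed in the edgeR test of genes, 0 had an unadjusted p under 0.05, and DESeq2 called 0 of the 7 to which it gave an adjusted p. Of 8 tested 3p combinations, 1 was higher in HM and 0 were lower, near the 13% of all 3p combinations that were higher. This was Trim71, an E3 ligase and RNA-binding repressor of stem cells, whose 3p hybrids numbered 0 in each WT library and 2, 7 and 2 for HM (edgeR adjusted p = 0.0206), while its 5p hybrids numbered 5, 3 and 0 for WT and 0 in each HM library. It had enough reads for the test through HM alone. DESeq2 called 0 of the 5 combinations to which it gave an adjusted p.

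The 5 genes of that list with the most reads were Cnot6, a deadenylase of the CCR4-NOT complex (66 reads), Fxr1, a paralogue of Fmr1 (37), Tob2, which binds that complex (23), the decapping factor Dcp1a (20) and Trim71 (19). Cnot6 had 2, 10 and 7 reads for WT against 8, 24 and 15 for HM (edgeR adjusted p = 0.445). Fxr1 had 4, 8 and 1 for WT and 4, 8 and 12 for HM (edgeR adjusted p = 0.854), so that it overlapped between the genotypes where Fmr1 did not.

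Among the 343 other genes with at least 10 reads, those whose reads per 1000 hybrids were most like Tnrc6a over the 6 libraries were Fam60a (Pearson r = 0.986), Rnf4 (0.983) and Morf4l2 (0.982). For Gigyf1 they were Rbpms2 (0.984), Ptar1 (0.979) and Ube2w (0.962), and for Fmr1 Pex19 (0.9997), Setd5 (0.993) and Atp2a2 (0.974). These values describe 6 libraries of a pair of genotypes and share library size as a divisor. The level of the mRNAs was not measured in these libraries, so a change in the mRNA and a change in its binding cannot be told apart.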

How the data were processed

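AGO2 CLASH was carried out by the authors in P19 cells, with 3 WT and 3 HM libraries. Per the study's methods, QuagmiR named the miRNA part of a hybrid, Bowtie2 mapped the target part to 3′ UTRs of mouse coding genes, and only interactions predicted by TargetScan were kept; versions of the mapping tools, the genome build and the handling of duplicates were not given in the sources used here. A filter on predicted interactions would leave other pairings uncounted. Of all reads whose miRNA has a RefSeq sequence, 38.9% had no seed match in the fragment. Whether the deposited counts had passed the filter was not tested. The deposited values are counts of reads per distinct hybrid, not normalized. Reads may therefore not be independent molecules. Genotype and replicate came from sample titles. The replicates are called biological there.

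Members were found by gene symbol, and reads were summed per library, gene, arm and miRNA. The members, lists and tests were chosen with earlier results of these data known. Every member with a read was named, with each miRNA of at least 3 reads on it. Counts were tested over all features with at least 10 reads in edgeR 4.0.16 (R 4.3.3, quasi-likelihood test, Benjamini-Hochberg, threshold 0.05), with all hybrids as library size for genes and arms and 3p hybrids for pairs. DESeq2 1.42.0 (own size factors), TMM, other minimums (none, 30 reads), other library sizes, each distinct hybrid counted once, each library left out, and the replicate number as a block were alternatives. The fits were tested on simulated data. Ratios have exact conditional 95% intervals from summed reads; where a genotype had 0 reads, 3 reads over its libraries were used. Seed matches were exact matches in the fragment to RefSeq sequences; counting the seed from the start in the read was chosen after seeing the data. A miRNA start was placed by its first 10 bases on the RefSeq hairpin. Python 3.11.15, numpy 2.4.6, pandas 2.3.3, scipy 1.17.1 and matplotlib 3.10.9 were used. The sequence of 1 target site is not reported here.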

Additional observations from a re-analysis of the deposited data

How the results depend on the processing

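The members that passed in the test of genes numbered 3, and 2 or 3 under each alternative; without single replicates the count was 2 to 3. Tnrc6a passed throughout, Gigyf1 not with 3p totals, DESeq2 or without WT replicate 1, and Fmr1 wherever it had the reads to be tested. Those reads of Fmr1 were from HM alone. In the test by arm the count was 2 to 3 (2 with DESeq2, which gave Fmr1 no adjusted p, and with at least 30 reads), and 3 without each replicate, where Tnrc6c took the place of Fmr1 without HM replicate 2. The pair of miR-19b-3p and Gigyf1 was called as reported (1) and not with DESeq2 (0), with no minimum of reads (0) or with the replicate block (0, adjusted p = 0.126); without single replicates the count was 0 to 1, and only the fit without HM replicate 2 kept it. No member pair had the 30 reads of the stricter minimum. The cause was not tested. With the total of 3p hybrids as library size, Tnrc6b turned to -0.43 on the log2 scale (gene) and -0.22 (3p). Without single replicates Ago1 lay between -0.99 and 0.077 (gene) and -0.70 and 0.51 (3p), turning to the upper values without WT replicate 3; none of these passed.

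The deviations of same-numbered libraries from their group means had r = -0.06, -0.01 and -0.04. Those of differently numbered libraries had r between -0.065 and 0.081. With so few reads per gene, these values cannot tell whether the numbers pair libraries. The replicate block left 34 of the 57 gene calls, 61 of 80 arm calls and 13 of 22 pair calls by number. It changed no other call of a member. Over all genes 24 passed with DESeq2, 23 with no minimum, 17 with at least 30 reads, and 25 to 46 without single replicates. Over arms 47 passed with DESeq2, 19 with at least 30 reads, and 32 to 76 without single replicates. Over pairs 14 passed with DESeq2, 33 with all hybrids as library size, 3 with at least 30 reads, and 8 to 17 without single replicates. Sites numbered 76 with 12 shared bases; 38.4% of member reads had a match of at least 7 bases, and 48.5% with the start in the read. Reads on members are few, and a count of 0 in a library allows up to 3.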
